A study of Mus musculus with 6 samples.

Results

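The accessible regions described here are those of 10 marker genes of radial glia and astrocytes: *Nes*, *Vim*, *Gfap*, *Fabp7*, *Slc1a3*, *Aqp4*, *Aldh1l1*, *Hopx*, *Ptprz1* and *Tnc*. A region belonged to one of them where its ATAC-seq summit of highest fold enrichment had that gene as its nearest protein-coding transcription start site (TSS), at most 50 kb away. The parent list held 74 such regions of 82885 and the ΔSRR2–18 list held 59 of 107480, together 133 of 190365. The genes were chosen by name and not by these values, though with earlier results of these data known.

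In ATAC-seq a transposase cuts into accessible DNA, and read ends gather at active promoters and enhancers. It was performed on neural stem/progenitor cells (NSPCs) derived from 129S1/Cast F1 hybrid ESCs and kept in N2B27 medium with EGF and bFGF, 3 cultures per genotype. The parent line (Clone 5B) carries Sox2-mCherry on the 129 allele and no deletion, and the ΔSRR2–18 line (Clone 47D) carries the same reporter and lacks the SRR2–18 enhancer cluster downstream of *Sox2* on both alleles. Each genotype is therefore 1 clone, and clone and genotype cannot be told apart. The deposited peak lists pool the 3 cultures of a genotype, so the values below carry no replicate error and the genotypes were compared without a test.

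Radial glia are the stem cells of the developing brain. They make neurons first and astrocytes later, and cultured NSPCs share many of their genes. The intermediate filament genes *Nes* and *Vim*, the fatty acid binding protein gene *Fabp7* and the glutamate transporter gene *Slc1a3* mark radial glia, *Hopx*, *Ptprz1* and *Tnc* mark outer radial glia and astrocytes, and *Gfap*, *Aqp4* and *Aldh1l1* mark astrocytes. Such genes are read from distant enhancers as well as from their promoters, and accessibility of an enhancer is not itself a measure of transcription.

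The labels were checked against the deleted interval first. Between the sites cut by the guides, chr3:34653747-34670054, the parent list held 4 regions and the ΔSRR2–18 list held 0. Both lists had a region at the TSS of all 7 NSPC markers checked (*Sox1*, *Sox2*, *Pax6*, *Msi1*, *Nes*, *Vim* and *Fabp7*). The pooled parent reads were deeper by the background level, which the labels do not show: background bottomed out at 38.8 reads for the parent and at 19.7 for ΔSRR2–18, a ratio of 1.98. Parent reads are therefore also given divided by this ratio, as reads at ΔSRR2–18 depth. Summit reads are the height of the read pileup at a summit, solved from the deposited fold enrichment and −log10 p, and regions are called high or low by them.

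Of the 74 parent regions, 39 overlapped no ΔSRR2–18 region and are called parent-only. They made up 52.7% (95% Wilson interval, 41.5–63.7), beside 45.0% of all 55017 parent regions within 50 kb of a protein-coding TSS. Of the 59 ΔSRR2–18 regions, 26 overlapped no parent region (deletion-only), which is 44.1% (32.2–56.7) beside 53.0% of all 64666. Both background shares lie inside the intervals of the marker genes, which cover counting error only. Among regions more than 1 kb from a TSS of the gene, 60.0% (47.9–71.0) of the marker gene regions in the parent list were parent-only, beside 57.2% of all such regions. In the ΔSRR2–18 list 50.0% (36.6–63.4) were deletion-only, beside 64.5% of all, which lies just outside this interval of counting error. Of the parent-only regions, 37 of 39 were also missing from the more permissive (optimal) ΔSRR2–18 list, and 26 of 26 deletion-only regions were missing from both parent lists. The optimal lists are little longer than the others, with 87442 regions against 82885 in the parent and 115655 against 107480 in ΔSRR2–18 NSPCs. The same shares over all regions are not given here, so these counts do not set the marker genes apart.

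The genes differed in which list held more of their regions. *Nes* had 9 regions in parent and 3 in ΔSRR2–18 NSPCs, *Ptprz1* had 10 and 4, *Aldh1l1* had 10 and 6, *Slc1a3* had 12 and 9, *Aqp4* had 3 and 0, and *Fabp7* had 3 and 2. The order was the opposite for *Tnc* (11 and 16) and, by 1 region each, for *Vim* (4 and 5), *Gfap* (2 and 3) and *Hopx* (10 and 11). Thus 6 of 10 marker genes had more parent regions, beside 27.8% of the 17643 genes with any region, and 4 of 10 had more ΔSRR2–18 regions, beside 45.7%. An excess of parent regions as large as that of *Nes* and *Ptprz1* was found for 1.24% of genes, as large as that of *Aldh1l1* for 3.73%, and as large as that of *Slc1a3* and *Aqp4* for 6.98%. An excess of ΔSRR2–18 regions as large as that of *Tnc* was found for 5.70% of genes. The shares over all genes were not matched for the number of regions per gene. A gene with few regions cannot show a large excess, and the genes outside the 27.8% and 45.7% had equal counts in both lists. The counts also depend on how intervals were split. At *Nes*, 4 shared parent regions stood against 3 shared ΔSRR2–18 regions, and at *Aldh1l1* 6 against 5, because 1 ΔSRR2–18 region overlapped neighbouring parent regions.

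**Figure D1:**
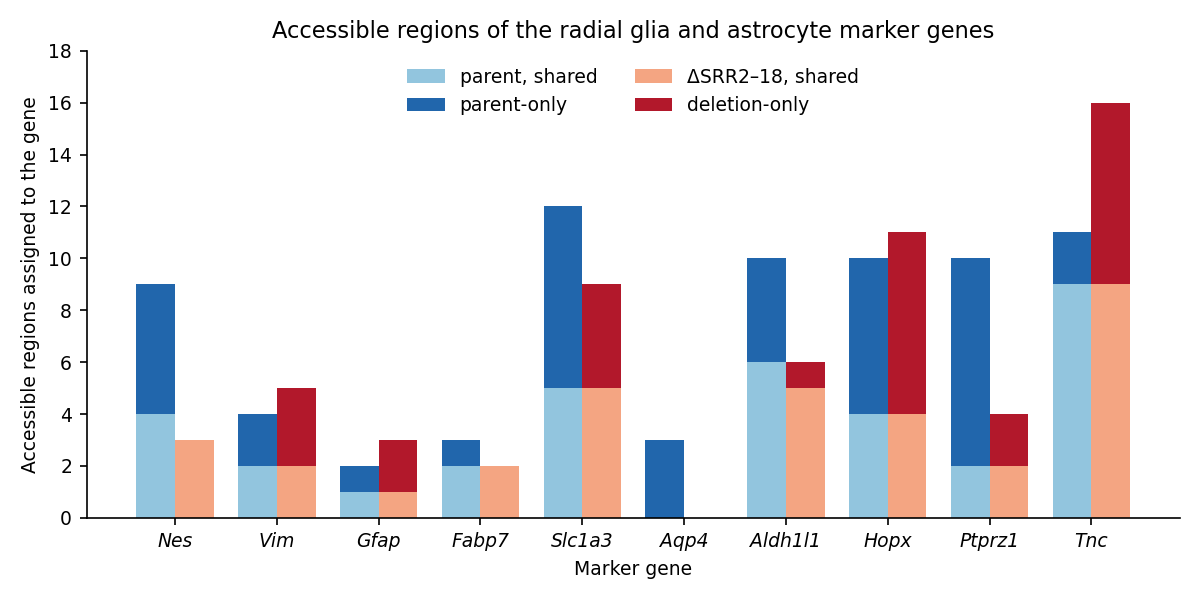
Bars give the number of accessible regions assigned to each marker gene in the parent (left bar) and the ΔSRR2–18 list (right bar), and the darker upper part of each bar gives regions that overlap none of the other genotype. *Nes* (9 against 3) and *Ptprz1* (10 against 4) have the most parent-rich counts, and *Tnc* (11 against 16) the most deletion-rich one.

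The promoters were mostly open in both genotypes. A summit lay within 1 kb of a TSS in both lists for 7 of 10 genes (*Nes*, *Vim*, *Fabp7*, *Slc1a3*, *Hopx*, *Ptprz1* and *Tnc*), beside 52.4% of 21924 protein-coding genes. In neither list was there one for *Gfap*, *Aqp4* and *Aldh1l1*, the 3 astrocyte genes of the set, beside 37.7% of genes. No marker gene had one in a single list only, beside 3.40% of genes in the parent list only and 6.54% in the ΔSRR2–18 list only. This held for the conservative lists and 1 kb: the optimal lists had a TSS region for 7 and 8 of the 10 genes, and a limit of 2.5 kb gave 9 and 8, the single gene being *Aqp4* in both cases.

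Sequences are shown for the regions that the comparisons turn on, each over the 100 bp on either side of the summit, from the mm10 genome. The first set are 5 regions found in the parent list alone, with matches to the SOX core in capitals (ACAAAG or ACAATG, on either strand). SOX2 and other SOX factors bind this core. The *Gfap* window holds no such match and is shown because it was among the highest of these regions.
*Nes* +14.5 kb (chr3:87985497-87985697, forward strand): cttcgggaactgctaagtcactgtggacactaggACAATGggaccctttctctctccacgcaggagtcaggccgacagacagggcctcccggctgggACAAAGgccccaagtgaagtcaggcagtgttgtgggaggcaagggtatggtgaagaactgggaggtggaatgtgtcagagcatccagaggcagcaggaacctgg
*Aldh1l1* −15.6 kb (chr6:90535124-90535324, forward strand): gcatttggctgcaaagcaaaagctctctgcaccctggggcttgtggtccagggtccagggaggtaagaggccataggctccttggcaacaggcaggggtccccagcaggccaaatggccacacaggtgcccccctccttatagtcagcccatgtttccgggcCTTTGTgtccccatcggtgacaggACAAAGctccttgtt
*Hopx* −31.9 kb (chr5:77146886-77147086, forward strand): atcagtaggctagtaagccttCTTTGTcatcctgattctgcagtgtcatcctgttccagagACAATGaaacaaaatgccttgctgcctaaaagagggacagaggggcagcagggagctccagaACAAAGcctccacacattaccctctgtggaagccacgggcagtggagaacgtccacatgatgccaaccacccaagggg
*Vim* +1.9 kb (chr2:13576101-13576301, forward strand): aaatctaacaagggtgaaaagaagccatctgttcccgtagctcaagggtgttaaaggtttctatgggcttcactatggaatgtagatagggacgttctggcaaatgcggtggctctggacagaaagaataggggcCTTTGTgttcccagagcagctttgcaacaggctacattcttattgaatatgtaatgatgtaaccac
*Gfap* −1.3 kb (chr11:102898445-102898645, forward strand): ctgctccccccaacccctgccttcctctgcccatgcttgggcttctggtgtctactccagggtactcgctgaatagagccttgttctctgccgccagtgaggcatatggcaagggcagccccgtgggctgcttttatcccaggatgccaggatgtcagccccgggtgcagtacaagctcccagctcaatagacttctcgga

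The second set are regions open in both genotypes but lower in ΔSRR2–18 NSPCs. They are the intron of *Nes* between the second and the third exon, long known as a neural enhancer, and the *Fabp7* promoter. Capitals in the *Nes* window mark a match to the RBPJ core (TTCCCAC), which the Notch effector RBPJ binds. The *Fabp7* window holds neither this core nor a SOX core. No exact SOX core or POU octamer (ATGCAAAT) stands in the *Nes* window, and looser forms and joint SOX-POU sites were not scanned.
*Nes* +3.3 kb (chr3:87974363-87974563, forward strand): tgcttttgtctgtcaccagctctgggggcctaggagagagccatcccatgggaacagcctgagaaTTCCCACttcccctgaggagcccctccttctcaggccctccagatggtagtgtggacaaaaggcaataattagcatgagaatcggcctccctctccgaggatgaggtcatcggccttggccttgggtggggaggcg
*Fabp7* −0.1 kb (chr10:57784655-57784855, forward strand): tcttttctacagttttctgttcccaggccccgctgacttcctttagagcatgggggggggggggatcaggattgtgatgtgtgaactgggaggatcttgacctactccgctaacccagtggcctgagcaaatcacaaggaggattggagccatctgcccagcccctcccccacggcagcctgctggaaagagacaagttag

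The third set are 4 regions found in the ΔSRR2–18 list alone, with matches to the AP-1 site TGACTCA in capitals, and last the *Tnc* region at −18.5 kb, which was shared and held neither a SOX nor an AP-1 match. AP-1 is the family of FOS and JUN dimers.
*Hopx* −19.0 kb (chr5:77134037-77134237, forward strand): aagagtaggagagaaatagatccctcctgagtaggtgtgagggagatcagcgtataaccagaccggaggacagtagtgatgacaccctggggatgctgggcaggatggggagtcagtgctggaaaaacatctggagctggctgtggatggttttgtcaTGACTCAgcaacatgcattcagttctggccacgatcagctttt
*Gfap* +2.2 kb (chr11:102894826-102895026, forward strand): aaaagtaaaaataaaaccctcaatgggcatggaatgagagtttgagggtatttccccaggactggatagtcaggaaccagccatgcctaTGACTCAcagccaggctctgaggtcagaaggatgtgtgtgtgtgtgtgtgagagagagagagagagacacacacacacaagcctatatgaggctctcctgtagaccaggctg
*Tnc* −12.0 kb (chr4:64058901-64059101, forward strand): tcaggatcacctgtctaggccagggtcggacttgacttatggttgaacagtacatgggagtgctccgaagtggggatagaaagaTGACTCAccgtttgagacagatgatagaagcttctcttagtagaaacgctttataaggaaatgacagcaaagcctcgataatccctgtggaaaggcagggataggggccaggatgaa
*Tnc* −40.9 kb (chr4:64087768-64087968, forward strand): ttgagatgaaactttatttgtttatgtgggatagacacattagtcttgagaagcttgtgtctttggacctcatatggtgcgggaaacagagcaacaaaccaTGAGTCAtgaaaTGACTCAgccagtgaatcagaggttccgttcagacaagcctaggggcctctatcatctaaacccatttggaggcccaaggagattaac
*Tnc* −18.5 kb (chr4:64065385-64065585, forward strand): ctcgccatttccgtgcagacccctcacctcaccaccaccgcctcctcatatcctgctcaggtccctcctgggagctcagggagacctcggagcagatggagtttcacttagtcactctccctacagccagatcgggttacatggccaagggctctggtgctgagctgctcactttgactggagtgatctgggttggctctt

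*Nes* (ENSMUSG00000004891.16, chr3:87971093-87980451, forward strand) encodes Nestin, the intermediate filament of neural stem cells. The interval of each gene is that of its transcripts in the GENCODE basic set. The highest *Nes* region was absent from both ΔSRR2–18 lists: the parent-only region 14.5 kb downstream of the TSS (chr3:87985300-87986030, intergenic) had 6455 summit reads, or 3267 at ΔSRR2–18 depth, and ranked in the top 1.43% of the parent list. By −log10 p (top 6.66%) it stood below the shared region 10.1 kb upstream (top 1.90%). A ΔSRR2–18 region lay 585 bp from it, but that one was not assigned to *Nes* and is not among its regions here. Another 3 parent-only regions lay between 10.4 and 12.3 kb downstream, with 1860 to 2624 summit reads, and one more in an intron at +1.3 kb, with 2397, which overlapped a region of the more permissive ΔSRR2–18 list. The enhancer in the intron was shared but lower, with 3934 summit reads in the parent (1991 at ΔSRR2–18 depth) and 473 in ΔSRR2–18 NSPCs, a log2 ratio of −2.07. Only 4.03% of all shared regions had a lower ratio. The TSS region (chr3:87970739-87971878) changed less, from 1777 reads at ΔSRR2–18 depth to 1014 (log2 ratio −0.81), and the region 10.1 kb upstream from 2767 to 2076 (−0.41). A separate parent region at −0.56 kb, with 1436 summit reads, overlapped the same ΔSRR2–18 region as the TSS region and was not paired. So the regions assigned to *Nes* downstream of its TSS were absent or lower, and the one 10.1 kb upstream stood at the same place in both lists, in the top 3.02% and 3.06%.

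The fold enrichment gives another picture of the *Nes* promoter. It was 5.76 in parent and 8.50 in ΔSRR2–18 NSPCs, because the local background, which MACS2 takes from the surrounding DNA, was itself 609 reads (308 at ΔSRR2–18 depth) against 118. Reads, not fold enrichment, are therefore compared between genotypes below, and ranks by all 3 measures are given where the genes are summed.

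*Vim* (ENSMUSG00000026728.9, chr2:13573952-13582826, forward strand) encodes Vimentin, the filament partner of Nestin in radial glia. Its TSS region had almost the same height in both genotypes, 2057 reads at ΔSRR2–18 depth and 2004 (log2 ratio −0.04). The region 1.6 kb upstream of the TSS was lower in ΔSRR2–18 NSPCs, 557 reads against 1545 (−1.47). A parent-only region lay in the gene body 1.9 kb downstream (chr2:13575922-13576486), in an intron, with 3944 summit reads. A weaker one lay 22.9 kb downstream, with 157. The 3 deletion-only regions were all downstream of the gene, at 9.7, 19.2 and 20.2 kb, with 615, 259 and 356 reads.

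*Gfap* (ENSMUSG00000020932.14, chr11:102887336-102897200, reverse strand) encodes the filament protein of mature and reactive astrocytes. The region next upstream of its TSS, at −1.3 kb (chr11:102898215-102899035), was parent-only with 6112 summit reads, or 3093 at ΔSRR2–18 depth, in the top 1.86% of the parent list. The region at −3.8 kb had the same height in both genotypes, 567 reads at ΔSRR2–18 depth and 575 (log2 ratio 0.02). Inside the gene the order was the reverse: 2 deletion-only regions lay 2.2 kb (381 reads, in an intron) and 4.0 kb (386 reads, in a coding exon) downstream of the TSS. The gene record of the annotation runs on to 102900912 and takes in the region at −1.3 kb, but no basic transcript starts there. All 4 positions also lie in an intron of the non-coding gene Gm26668.

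*Fabp7* (ENSMUSG00000019874.11, chr10:57784881-57788450, forward strand) encodes the brain lipid binding protein of radial glia, a known target of Notch signalling. Every *Fabp7* region of the parent list was lower in the ΔSRR2–18 list or missing from it. The TSS region (chr10:57783225-57785143) went from 1853 reads at ΔSRR2–18 depth to 445, 4.16-fold lower (log2 ratio −2.06). This was the lowest ratio of the 8 promoter pairs of the marker genes. The region 40.5 kb upstream went from 1715 to 145 (−3.56), although the 2 summits stood 491 bp apart. The region at −7.6 kb was parent-only, with 1621 summit reads. By fold enrichment the promoter stood lower in the parent list (top 39.0%) than in the ΔSRR2–18 list (top 8.37%), the opposite of its rank by reads (top 9.10% and 40.7%).

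*Slc1a3* (ENSMUSG00000005360.14, chr15:8634124-8710764, reverse strand) encodes the glutamate transporter GLAST. Its TSS region had 1067 reads at ΔSRR2–18 depth in the parent and 719 in ΔSRR2–18 NSPCs (log2 ratio −0.57). Of its distal shared regions, 3 were lower by more than 2-fold in ΔSRR2–18 NSPCs: −23.2 kb (1169 to 170, −2.78), +37.7 kb (984 to 303, −1.70) and −6.4 kb (774 to 324, −1.26). The fourth, at −11.8 kb, was higher (155 to 275, 0.83). The highest of the 7 parent-only regions were in introns, 46.4 kb (3860 summit reads) and 4.15 kb (2790) downstream of the TSS. The 4 deletion-only regions had 171 to 627 reads, the highest of them 48.5 kb upstream with an AP-1 and a SOX match.

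*Aqp4* (ENSMUSG00000024411.10, chromosome 18) encodes the water channel of astrocyte endfeet. It had 3 regions in parent and 0 in ΔSRR2–18 NSPCs. The highest lay 1.5 kb upstream of one of its 4 TSSs, in an intron of its longer transcripts, with 3298 summit reads (top 11.1%). The others had 1076 and 272. The more permissive ΔSRR2–18 list alone held 1 further region, 0.78 kb upstream of a TSS, with 122 reads.

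*Aldh1l1* (ENSMUSG00000030088.15, chr6:90550789-90600203, forward strand) encodes a folate enzyme widely used as a pan-astrocyte marker. The gene record of the annotation starts further upstream, at 90486427, and takes in all the upstream regions given here. Its highest region, 15.6 kb upstream (chr6:90534635-90535650), was parent-only, with 6424 summit reads or 3251 at ΔSRR2–18 depth (top 1.46%). Of the other parent-only regions, −41.5 and −9.3 kb had 1637 and 1468 summit reads and −21.9 kb had 177. The shared region at −35.6 kb was 7.13-fold lower in ΔSRR2–18 NSPCs (984 to 138, log2 ratio −2.83), and the one at +10.7 kb was 2.00-fold lower (1526 to 763). The other 3 pairs, at −12.7, +15.2 and +24.7 kb, lay close to equal, with log2 ratios of −0.40, −0.20 and −0.30. The single deletion-only region, at +9.8 kb, had 182 reads and 2 AP-1 matches.

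*Hopx* (ENSMUSG00000059325.14, chr5:77086988-77115121, reverse strand) encodes a small homeodomain protein without DNA binding of its own. Both of its promoters were open in both genotypes and lower in ΔSRR2–18 NSPCs. The inner one went from 1150 to 573 reads (2.01-fold lower) and the outer one from 793 to 257 (3.08-fold lower), with summits 709 bp apart at the outer one. Regions of both kinds lay upstream of the outer promoter. Parent-only ones lay at −7.9 kb (1759 summit reads), −22.9 kb (4489), −31.9 kb (1433) and −42.1 kb (530). Deletion-only ones lay at −9.8 kb (133), −19.0 kb (1517), −21.7 kb (331), −26.4 kb (369) and −42.9 kb (165). Another 2 parent-only (903 and 163 summit reads) and 2 deletion-only ones (182 and 346) lay between the promoters or downstream of the inner one. The highest of each kind lay at −22.9 and −19.0 kb, with the lower deletion-only region at −21.7 kb between them: the first ranked in the top 5.75% of the parent list and the second in the top 7.12% of the ΔSRR2–18 list. The −19.0 kb region held an AP-1 match and the −22.9 kb region held none.

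*Ptprz1* (ENSMUSG00000068748.7, chr6:22875502-23052916, forward strand) encodes a receptor tyrosine phosphatase of the radial glial surface, which binds matrix proteins including tenascins. Of its 10 parent regions 8 were parent-only. The highest of these were an adjoining pair 41.6 and 40.7 kb upstream, with 3455 and 3433 summit reads, and an intron region 47.4 kb downstream, with 2619. The TSS region was 2.93-fold lower in ΔSRR2–18 NSPCs (1698 to 579, log2 ratio −1.55), and the other shared region, at +33.9 kb, 2.61-fold lower (772 to 296, −1.38). The 2 deletion-only regions, at −9.2 and −7.7 kb, were low in their list, with 190 and 91 reads (top 77.7% and 99.4%).

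**Figure D2:**
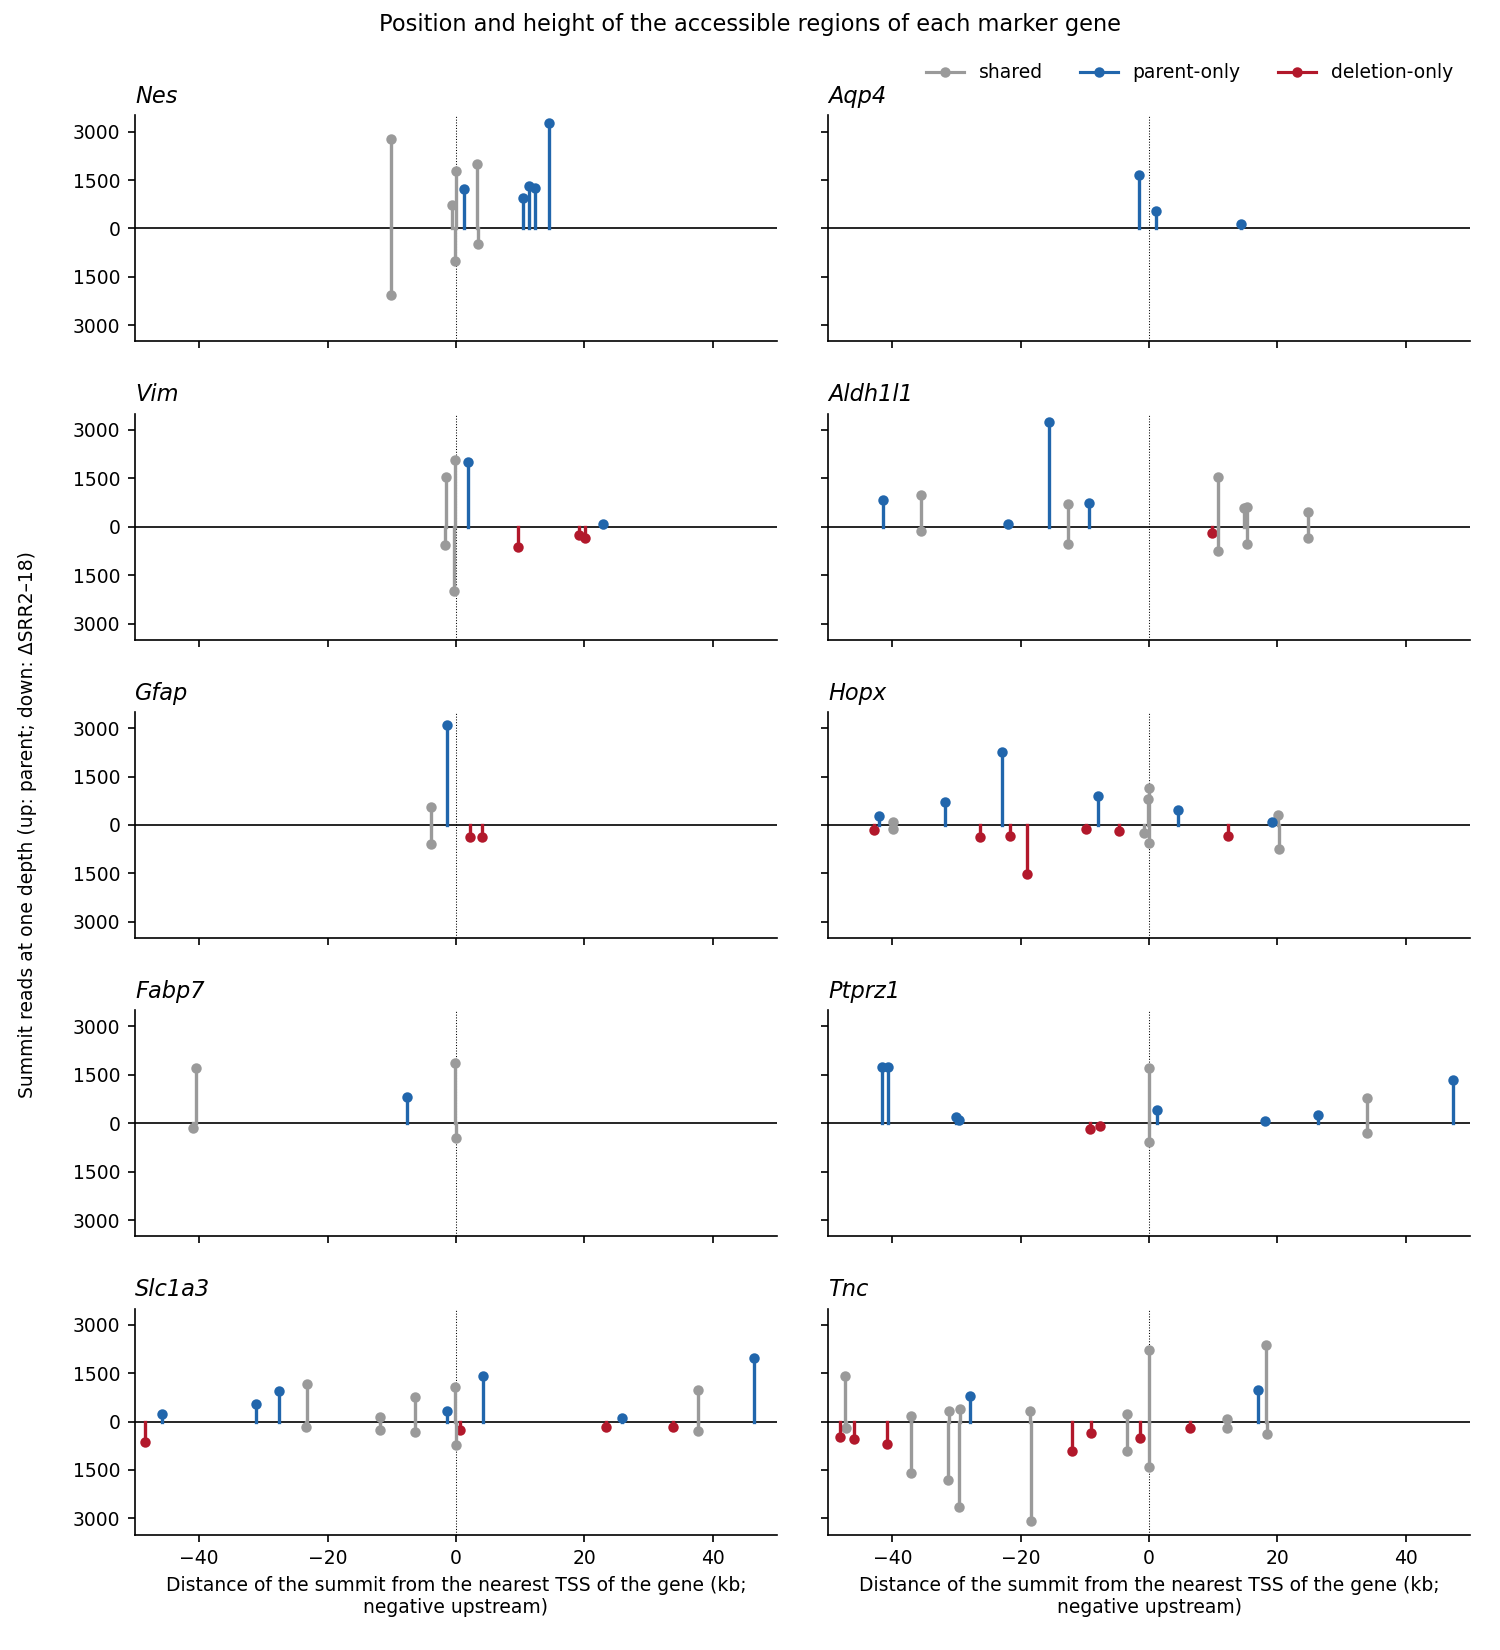
Each panel plots, for 1 marker gene, the distance of every region's summit from the nearest TSS of that gene (kb, negative upstream) against its summit reads at one depth, parent upward and ΔSRR2–18 downward. Blue stems (parent-only) are tall at *Nes*, *Gfap* and *Aldh1l1*, where the highest reach 3267, 3093 and 3251 reads, and the downward stems upstream of *Tnc* reach 3079.

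*Tnc* (ENSMUSG00000028364.15, chr4:63959785-64047015, reverse strand) encodes tenascin-C, a matrix protein of the stem cell niche and also of connective tissue and wounds. It was the exception among the 10 genes, with higher values in ΔSRR2–18 NSPCs at 6 of its 9 shared regions. Upstream of the outer TSS the shared region at −18.5 kb (chr4:64065118-64065783 in the ΔSRR2–18 list) went from 318 reads at ΔSRR2–18 depth to 3079, 9.67-fold higher (log2 ratio 3.27), and moved from the top 52.8% of the parent list to the top 0.663% of the ΔSRR2–18 list. The region at −37.0 kb went from 171 to 1584 (3.21), the one at −29.4 kb from 399 to 2655 (2.73) and the one at −31.2 kb from 330 to 1822 (2.47). Within the gene, −3.5 kb from the inner TSS, 235 reads stood against 912 (1.96), and 12.1 kb downstream of the outer TSS 92 against 194 (1.08). Of the 7 deletion-only regions 6 lay upstream of a TSS, the highest of them at −12.0 kb (906 reads) and −40.9 kb (696). All *Tnc* regions also lie in an intron of the non-coding gene 8030451A03Rik, and those at −29.4 and −31.2 kb lie in the non-coding gene Gm11216 as well.

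Some regions of *Tnc* went the other way. The TSS region was 1.56-fold lower in ΔSRR2–18 NSPCs (2219 to 1420, log2 ratio −0.64). The intron region at +18.2 kb, the highest of *Tnc* in the parent list, was 6.15-fold lower (2374 to 386, −2.62), and the region at −47.3 kb was 6.65-fold lower (1409 to 212, −2.73). The region at −47.3 kb had a deletion-only region on either side, at −46.0 kb (537 reads) and −48.2 kb (475). The 2 parent-only regions, at +16.9 and −27.9 kb, had 1904 and 1573 summit reads.

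Over all genes, 33 regions could be paired one to one between the lists. Their median log2 ratio (ΔSRR2–18 over parent, at one depth) was −0.64, beside −0.30 over all 29890 pairs, and 23 of 33 ratios were below 0, beside 65.9% of all. A ratio of 1 or more was found for 7 of 33, beside 12.5% of all pairs, and of −1 or less for 15 of 33, beside 15.2%. *Tnc* accounts for 6 of the 7 high ratios, the other being *Hopx* at +20.1 kb (306 to 736, 1.27). Without *Tnc* the median of the other 24 pairs was −1.003, and that of the 9 *Tnc* pairs was 1.96. *Tnc* was set apart by these same ratios, so the distance between the 2 medians is descriptive only. No gene was removed from the median over all pairs. All 8 promoter pairs of the marker genes had ratios below 0, with a median of −0.91. Ratios below 0 were also found for 11079 of all 13414 pairs within 1 kb of a TSS, and the median of these 13414 was −0.46.

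Ranks within each list did not all give the same order. By summit reads, 11 of the 33 pairs ranked higher in the ΔSRR2–18 list, by −log10 p 14 and by fold enrichment 21. These are 33.3%, 42.4% and 63.6% of the marker pairs, beside 45.0%, 43.2% and 41.0% of all pairs. The marker pairs thus ranked higher in the ΔSRR2–18 list less often than all pairs by reads, about as often by −log10 p and more often by fold enrichment. For *Tnc*, 6, 6 and 7 of 9 pairs ranked higher in the ΔSRR2–18 list by the 3 measures.

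**Figure D3:**
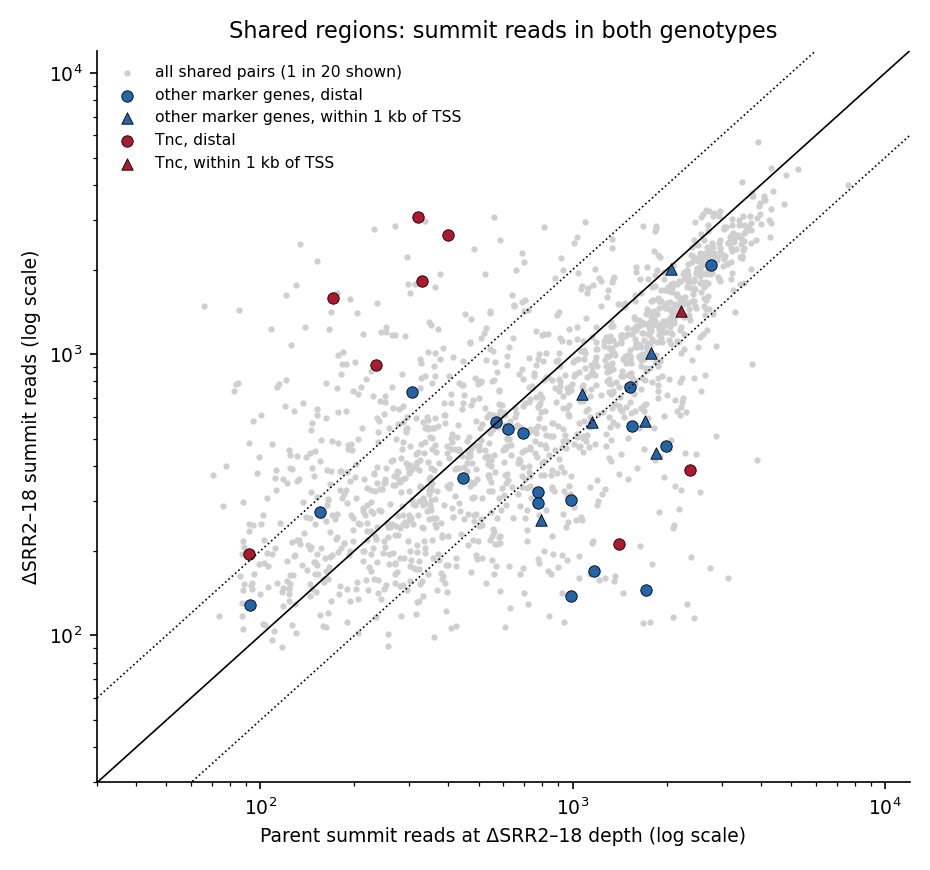
Each point is a shared region, with parent summit reads at ΔSRR2–18 depth on the x axis and ΔSRR2–18 summit reads on the y axis (both log scales), grey for all pairs and coloured for marker genes. The solid line marks equal reads and the dotted lines a 2-fold difference. The 8 promoter pairs (triangles) lie below the line of equality, 6 *Tnc* pairs lie above the upper dotted line, and 13 pairs of the other genes lie below the lower one. Of all 13414 pairs within 1 kb of a TSS, 11079 also had a ratio below 0.

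The parent-only regions of the marker genes were high ones by summit reads, which include the local background. By fold enrichment they ranged from the top 1.92% of the parent list (*Fabp7* −7.6 kb) to the top 97.4% (*Nes* +10.4 kb). The latter had 941 reads at ΔSRR2–18 depth on a background of 320. The values that follow are summit reads. The median of the parent-only marker regions was 820 reads at ΔSRR2–18 depth (range 79.5 to 3267, n = 39), beside 253 over all 24785 parent-only regions. Of the 39, 27 (69.2%) exceeded the median region of the ΔSRR2–18 list (353 reads), beside 37.5% of all. The deletion-only regions had a median of 351 reads (91 to 1517, n = 26), beside 305 over all 34301. By height the parent-only marker regions were therefore close to the shared ones in the parent list (median 793), and the deletion-only ones stood below the shared ones in the ΔSRR2–18 list (median 542). Of the parent-only regions 13 lay within the basic transcripts of the gene and 26 outside them, and of the deletion-only regions 8 and 17, with 1 within 1 kb of a TSS (*Slc1a3*, 252 reads). Against the longer gene records, which differ at *Gfap* and *Aldh1l1*, the parent-only counts were 18 and 21 and the deletion-only counts did not change. A region of the other genotype lay within 500 bp for 6 of the 39 parent-only and for 5 of the 26 deletion-only regions. The median gaps were 2973 and 2914 bp. The same values over all regions are not given here.

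**Figure D4:**
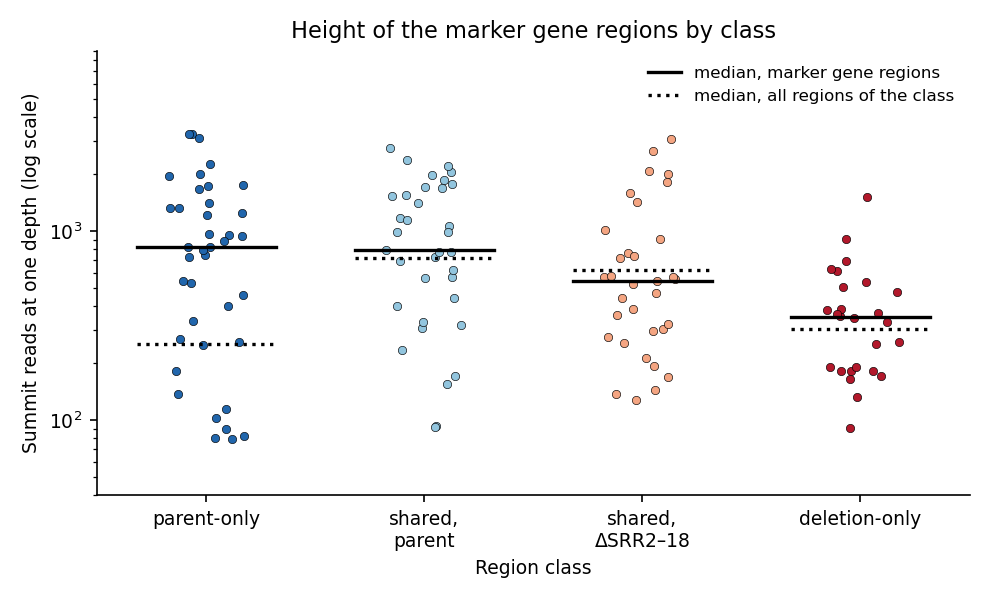
Points give the summit reads at one depth (log scale) of each marker gene region by class, with solid lines at the class medians of the marker genes and dotted lines at those of all regions. The parent-only points have a median of 820, above the dotted line at 253, whereas the deletion-only median of 351 lies near its dotted line at 305.

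The SOX share was highest in parent-only and the AP-1 share in deletion-only regions, among the marker regions and over all regions alike. Within 100 bp of the summit a SOX core was present in 16 of 39 parent-only marker regions (41.0%, 95% Wilson interval 27.1–56.6; 36.2% of all parent-only regions), in 11 of 35 shared regions of the parent list (31.4%, 18.6–48.0; 19.5% of all) and in 5 of 26 deletion-only regions (19.2%, 8.51–37.9; 24.0% of all). At the parent summits the shared marker regions thus held a SOX core more often than the deletion-only ones, the reverse of the order over all regions. Beyond 1 kb of any TSS the order was the same in both sets. There the core stood in 10 of 25 shared and 5 of 25 deletion-only marker regions, beside 26.1% and 24.6% of all. At the summits of the ΔSRR2–18 list, 7 of 33 shared marker regions held the core (21.2%; 18.0% of all), close to the deletion-only share. An AP-1 site was present in 13 of 26 deletion-only regions (50.0%, 32.1–67.9; 42.6% of all), in 3 of 35 shared regions (8.57%; 6.63% of all) and in 1 of 39 parent-only regions (2.56%; 2.40% of all). In windows moved by 500 bp, an AP-1 site stood in 1 of the 26 deletion-only regions (3.85%) and a SOX core in 11 of the 39 parent-only ones (28.2%), so much of the SOX share is met in the DNA beside these summits too. The AP-1 matches of the deletion-only class were spread over 7 genes: *Tnc*, *Hopx*, *Slc1a3*, *Vim*, *Gfap*, *Aldh1l1* and *Ptprz1*.

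An RBPJ core stood in 7 of 35 shared marker regions of the parent list (20.0%, 10.0–35.9), beside 4.96% of all shared regions. Beyond 1 kb of any TSS the core stood in 5 of 25 such regions (20.0%, 8.86–39.1), beside 6.09% of all. At the summits of the ΔSRR2–18 list it stood in 5 of 33 (15.2%; 4.85% of all). It stood in 3 of the 39 parent-only regions (7.69%; 5.58% of all) and in 1 of the 26 deletion-only ones (3.85%; 4.99% of all). The 7 are the *Nes* intron, the *Gfap* region at −3.8 kb, the *Fabp7* region at −40.5 kb, the *Slc1a3* promoter, and at *Tnc* the promoter and the regions at +18.2 and −47.3 kb. Of these, 6 had lower reads in ΔSRR2–18 NSPCs, the exception being *Gfap*, beside 17 of the 26 marker pairs without the core (65.4%). Over all pairs the share with lower reads was 61.7% with the core and 66.1% without it. The POU octamer ATGCAAAT, the CRE site TGACGTCA, the full NFI site and the RFX site had no match in any of the 3 classes, with shared regions read at the parent summit, and the share of all regions that hold them was at most 2.56%. At the ΔSRR2–18 summit, 1 shared region, *Tnc* at −47.3 kb, held the POU octamer. The short NFI site TTGGCA stood in 20.5% of the parent-only marker regions (27.0% of all) and 15.4% of the deletion-only ones (11.3% of all). A TEAD core (CATTCC) stood in 9 of 39 parent-only regions (23.1%, 12.6–38.3, beside 16.9% of all). It stood in 4 of 26 deletion-only ones (15.4%, 6.15–33.5, beside 23.5% of all). The order was the reverse of that over all regions, but the 2 intervals overlap and each includes the share over all regions. STAT, HOX-PBX, homeobox and CTCF words were scanned too and are not listed here, and no interval is adjusted for the number of motifs scanned. A match describes the letters only, and binding was not measured.

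**Figure D5:**
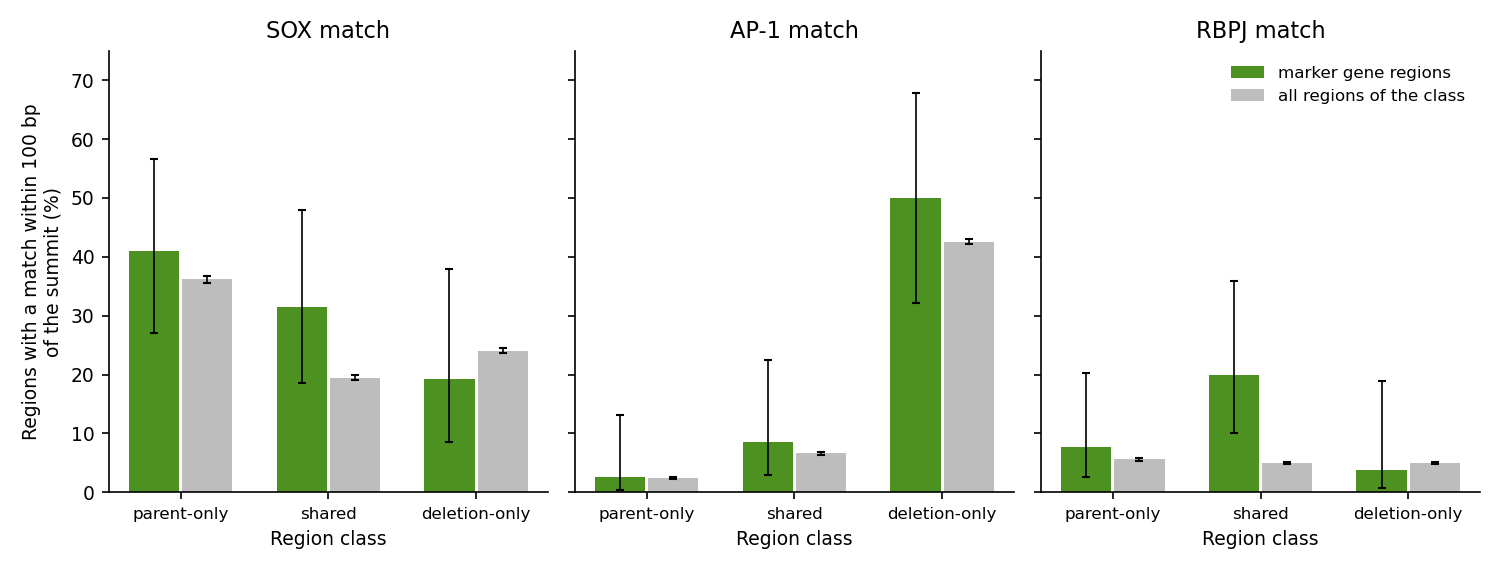
Bars give the percent of regions with a SOX, AP-1 or RBPJ match within 100 bp of the summit, by region class, for marker gene regions (green) and for all regions of the class (grey), with 95% Wilson intervals. The AP-1 share is highest in deletion-only regions in both sets (50.0% and 42.6%), and the RBPJ share of shared marker regions is 20.0% against 4.96%.

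A second list of 20 radial glia and astrocyte genes (*Msi1*, *Prom1*, *Glul*, *S100b*, *Aldoc*, *Slc1a2*, *Gja1*, *Gjb6*, *Sparcl1*, *Clu*, *Apoe*, *Cd44*, *Fgfr3*, *Slc4a4*, *Atp1b2*, *Acsbg1*, *Mlc1*, *Dbi*, *Ttyh1* and *Lrig1*) had 95 regions in each list, of which 46 (48.4%, beside 45.0% of all) were parent-only and 47 (49.5%, beside 53.0%) deletion-only. More parent regions were found for 9 of the 20 genes, beside 27.8% of genes, and more ΔSRR2–18 regions for 5, beside 45.7%. Here too the shares over all genes were not matched for the number of regions per gene. A TSS region was present for 19 of the 20 in parent and 17 in ΔSRR2–18 NSPCs, those of *Acsbg1* and *Mlc1* being in the parent list alone. The counts over this list were equal, whereas over all genes the parent list held fewer regions (55017 against 64666).

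Markers of other cell types differed between the lists as well. Their region counts are read beside 45.0% parent-only and 53.0% deletion-only over all genes. The 7 mesenchymal genes checked (*Col1a1*, *Col1a2*, *Col3a1*, *Pdgfrb*, *Twist1*, *Prrx1* and *Acta2*) had 29 parent (27.6% parent-only) and 57 ΔSRR2–18 regions (61.4% deletion-only), with TSS regions at 4 of 7 and 6 of 7: those of *Col1a2*, *Col3a1* and *Pdgfrb* were in the ΔSRR2–18 list alone and that of *Prrx1* in the parent list alone. *Tnc*, which mesenchymal cells also express, has its higher ΔSRR2–18 values beside this. The 7 oligodendrocyte genes had more parent regions, 38 (78.9% parent-only) against 25 (68.0% deletion-only), as did the 7 NSPC genes, which include *Nes*, *Vim* and *Fabp7*, with 45 (48.9%) and 30 (30.0%). In the same order, neuronal genes had 45 (60.0%) and 50 (64.0%), microglial genes 9 (66.7%) and 16 (81.2%), endothelial genes 16 (56.2%) and 23 (69.6%), and pluripotency genes 13 (38.5%) and 15 (46.7%). Of 7 neuronal genes, 4 and 6 had a TSS region, the difference being *Rbfox3* and *Stmn2*. Of 7 oligodendrocyte genes 3 had one in both lists, of 5 microglial genes 0 and 1 (*Csf1r*), of 4 endothelial genes 1 and 2 (*Tek*), and of 5 pluripotency genes 1 in both (*Esrrb*), with *Nanog*, *Pou5f1* and *Zfp42* in neither. In bulk chromatin a change in the share of cells of a type and a change in accessibility per cell cannot be told apart, and the part of such cells in the values of the marker genes was not tested.

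The distance limit of 50 kb was met by regions as far as 47.4 kb in the parent list (*Ptprz1*, 2619 summit reads) and 48.5 kb in the ΔSRR2–18 list (*Slc1a3*, 627). Just outside it lay regions of *Slc1a3* at 50.6 kb in both lists, with 6968 and 263 summit reads.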

How the data were processed

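The data are ATAC-seq peaks from 3 cultures of parent and 3 of ΔSRR2–18 NSPCs, each genotype being 1 clone. The labels give 30000 cells per culture and the paper 30000 to 50000. Per the paper, the authors ran version 1.10.0 of ENCODE's pipeline for ATAC-seq against mm10, with MACS2 for peak calling and IDR across the cultures of a genotype. The processing notes also name deepTools. Of the 4 deposited peak lists, the conservative ones were used, as the study kept them, and the optimal ones served as an alternative. Each deposited peak carries an IDR score, the ratio of summit pileup to local background (fold enrichment), a −log10 p and −log10 q, and the summit offset as another number. The lists are pooled, so depth per culture was not recovered. One allele is castaneus, and its reads can map less often to mm10.

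Peaks sharing an interval were taken as 1 region, described by the summit of highest fold enrichment. Reads at a summit were solved from fold enrichment and −log10 p and were whole within 0.05 for 99.9993% of parent and 100% of ΔSRR2–18 peaks. Pairs are regions that overlap each other most, by at least 1 bp. TSSs are those of the GENCODE M21 basic annotation, in which exons, introns and UTRs were also read. Motifs are exact matches on either strand. Words of different motifs can overlap each other, as the short and the full NFI site or the TEAD and RBPJ cores can. Python 3.11.15, pandas 2.3.3, scipy 1.17.1 and pysam 0.24.0 were used, and read recovery and overlap were tested on simulated data.

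The genes, lists and motifs were chosen with earlier results of these data known. Named regions were those within 1 kb of a TSS, the highest distal shared region and the parent-only and deletion-only region of highest −log10 p of each gene. The others named were chosen after their values were seen. Alternatives were the optimal lists, an IDR score of at least 830, merged intervals, lists of equal length, a −log10 p of 50 or more after scaling to one depth, 10 kb in place of 50 kb, 50% reciprocal overlap, absence from both lists of the other genotype, promoters of 2.5 kb, 50 bp around summits and only regions beyond 1 kb of a TSS for motifs, other ranks and another scale.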

Additional observations from a re-analysis of the deposited data

Results flagged for a closer look

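The optimal lists, which were not used for the comparisons, held regions near the marker genes that overlap neither conservative list: 6 in the parent list and 7 in the ΔSRR2–18 list. Such regions were low, with 119 to 722 summit reads in the parent and 85 to 237 in the ΔSRR2–18 list. At *Tnc* they stood 0.959 kb upstream of the outer TSS in the parent list (722 reads) and 0.438 kb upstream of the inner TSS in the ΔSRR2–18 list (237 reads). Near *Hopx*, a region 5.7 kb downstream of a TSS stood in both optimal lists, with 297 and 85 reads.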

How the results depend on the processing

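Counts of regions and classes stayed within 1.5 times of those reported with the optimal lists, an IDR score of at least 830, merged intervals, lists of equal length, values at one depth, 50% reciprocal overlap and absence judged against both lists. A gene distance of 10 kb left 26 parent and 25 ΔSRR2–18 regions, 12 parent-only and 12 deletion-only, with a SOX match in 5 and 3 and an AP-1 match in 0 and 4 of these, and a median log2 ratio of −1.005. That median was −0.816 with the optimal lists, −0.492 with 50% reciprocal overlap and −0.343 when scaled to the median of all pairs, and kept its sign. Marker genes with a TSS region numbered 7 and 8 with the optimal lists and 9 and 8 within 2.5 kb, against 7 and 7. By fold enrichment 21 pairs ranked higher in the ΔSRR2–18 list, against 11 by reads. SOX matches in deletion-only regions numbered 8 with the optimal lists and 2 in a 50 bp window, and the AP-1 match of the parent-only class was lost with either (0). No paired analysis was possible because the lists are pooled over cultures, and for the same reason no culture could be left out.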
